A study of Mus musculus with 20 samples.

Results

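The type I interferon-stimulated antiviral genes are a set of 40 genes. Many of their products sense, bind, degrade or confine viral nucleic acid and virus particles, or carry the interferon signal itself. Others have further roles, given below. The genes were taken from the deposited expression table by gene symbol. All 40 were found among its 14646 rows and were tested with 14385 genes in all. The samples were tumors of HEPA1-6, a mouse hepatoma cell line, grown for 4 weeks under the skin of C57/BL6 mice, a strain with an intact immune system. Poly-A RNA of the tumor tissue was sequenced, so that tumor cells and host cells were read together. The treatments were a control antibody or an antibody against CXCL10, each with or without GSK343, an inhibitor of EZH2, the methyltransferase that places the repressive Polycomb mark on histone H3. The dose of GSK343, its timing and the age of the mice are not stated in the labels.

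Values were available for 19 of the 20 labelled samples. There were 4 control tumors (control antibody without GSK343, replicates 1, 2, 3 and 5), 5 GSK343 tumors (control antibody with GSK343), 5 anti-CXCL10 tumors (antibody against CXCL10 without GSK343) and 5 combination tumors (antibody against CXCL10 with GSK343). All 4 groups carried the same tumor line, were grown in the same strain and received an antibody. The labels do not tie each tumor to an animal of its own, and a p-value here therefore stands only for the spread between the tumors sampled, which may in part be technical. The library labels carry numbers after the letter S, whose meaning they do not state, and these run once over both control-antibody groups and once over both anti-CXCL10 groups. The antibody therefore cannot be told apart from that numbering, whereas the effect of GSK343 lies within it.

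Type I interferons are cytokines that signal through the receptor chains IFNAR1 and IFNAR2. The receptor activates a complex that holds STAT2 and IRF9 and binds the interferon-stimulated response element (ISRE) in the promoters of antiviral genes. Interferon-gamma acts through another receptor and the gamma-activated site (GAS), and induces many of the same genes. CXCL10 is a chemokine induced by interferons that attracts T cells and NK cells through the receptor CXCR3.

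The promoters of the members were searched for these motifs. Of the 40 members, 30 had a window in the RefSeq promoter table for build GRCm38.p6, which spans 250 bases before to 50 after the transcription start. Dhx58, Mx1, Mx2, Oas2, Parp14, Parp9, Rtp4, Tor3a, Usp18 and Zbp1 had no entry. The ISRE core, searched as GAAANNGAAA on both strands with overlapping matches counted, was in 13 of these 30 windows (43.3%) and in 3.99% of the 27025 genes with a window. The GAS motif TTCNNNGAA, which reads the same on both strands, was in 7 of 30 (23.3%) and in 9.55% of all genes with a window. The members with an ISRE core were Bst2, Ddx58, Eif2ak2, Ifih1, Ifit1, Ifit3, Ifitm3, Isg15, Oas1a, Oas3, Rsad2, Stat2 and Trim30a.

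The promoters of Stat2, Oas3, Ifit1 and Bst2 are shown because these genes lead their functional groups below and hold the core. The promoters of Isg15 and Ifitm3 were added after their values were seen, as members with a core whose changes under GSK343 differed. Each sequence is on the gene's strand, with the ISRE core matches in capitals and counted from the transcription start.
Stat2, chr10:128270248-128270547, plus strand: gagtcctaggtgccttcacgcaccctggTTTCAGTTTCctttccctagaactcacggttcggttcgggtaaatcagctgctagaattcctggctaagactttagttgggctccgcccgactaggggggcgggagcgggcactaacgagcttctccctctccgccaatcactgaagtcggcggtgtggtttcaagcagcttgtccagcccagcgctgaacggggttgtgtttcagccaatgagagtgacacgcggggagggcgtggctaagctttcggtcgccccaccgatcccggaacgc
Oas3, chr5:120777610-120777909, minus strand: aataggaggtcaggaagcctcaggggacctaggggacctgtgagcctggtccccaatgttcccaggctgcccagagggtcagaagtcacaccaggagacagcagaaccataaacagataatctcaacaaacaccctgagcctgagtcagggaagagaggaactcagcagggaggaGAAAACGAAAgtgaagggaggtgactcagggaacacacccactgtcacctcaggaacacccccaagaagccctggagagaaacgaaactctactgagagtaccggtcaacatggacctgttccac
Ifit1, chr19:34640639-34640938, plus strand: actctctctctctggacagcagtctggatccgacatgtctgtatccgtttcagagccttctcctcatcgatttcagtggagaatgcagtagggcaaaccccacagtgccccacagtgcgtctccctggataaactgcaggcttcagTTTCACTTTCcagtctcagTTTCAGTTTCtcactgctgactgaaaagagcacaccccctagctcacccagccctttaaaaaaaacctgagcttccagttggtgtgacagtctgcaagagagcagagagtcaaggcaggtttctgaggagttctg
Bst2, chr8:71537423-71537722, minus strand: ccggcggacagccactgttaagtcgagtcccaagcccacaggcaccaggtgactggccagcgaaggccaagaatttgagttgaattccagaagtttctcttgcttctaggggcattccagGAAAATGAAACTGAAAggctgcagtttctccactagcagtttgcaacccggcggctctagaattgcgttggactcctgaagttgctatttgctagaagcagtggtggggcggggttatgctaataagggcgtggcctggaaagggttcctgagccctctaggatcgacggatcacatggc
Isg15, chr4:156200769-156201068, minus strand: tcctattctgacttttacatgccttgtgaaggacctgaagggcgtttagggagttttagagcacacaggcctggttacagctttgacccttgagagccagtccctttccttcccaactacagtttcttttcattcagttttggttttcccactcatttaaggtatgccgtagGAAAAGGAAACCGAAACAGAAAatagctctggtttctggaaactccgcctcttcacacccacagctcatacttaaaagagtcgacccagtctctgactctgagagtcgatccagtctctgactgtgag
Ifitm3, chr7:141010695-141010994, minus strand: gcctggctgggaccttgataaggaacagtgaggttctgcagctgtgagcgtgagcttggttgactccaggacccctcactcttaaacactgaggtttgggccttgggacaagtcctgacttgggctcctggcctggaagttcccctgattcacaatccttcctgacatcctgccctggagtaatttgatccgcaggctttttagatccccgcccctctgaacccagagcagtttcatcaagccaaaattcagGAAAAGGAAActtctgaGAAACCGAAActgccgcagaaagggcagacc
Ifit1 held its cores at -104 and -85, both on the strand opposite to the gene, and Stat2 held a single one at -222. Isg15 held 3 overlapping cores from -78 to -57, and Bst2 a pair of overlapping cores from -130 to -115. In Oas3 the core began at -75. In Ifitm3 the cores lay downstream of the start, at 3 and 20. A match is a description of the letters in the window and was not tested as a binding site.

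**Figure D1:**
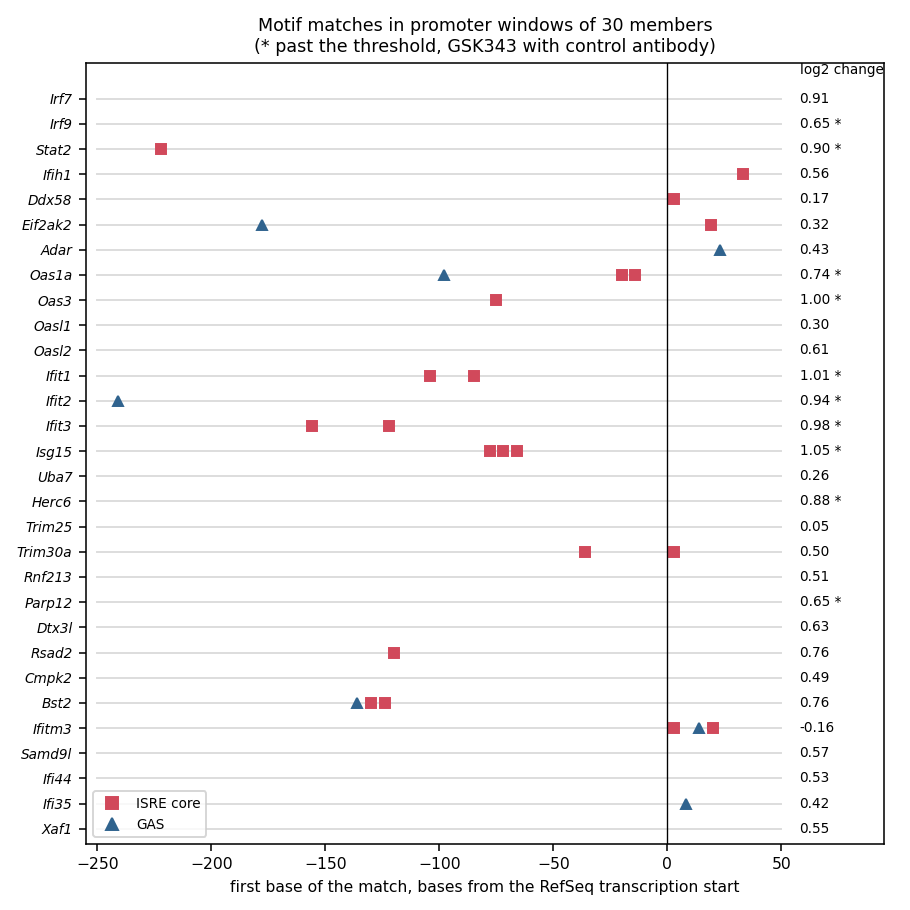
Position of ISRE core (squares) and GAS (triangles) matches in the promoter windows of member genes, in bases from the RefSeq transcription start, with each gene's log2 change under GSK343 with control antibody at the right. Matches of the ISRE core lie on both sides of the start, and those of Isg15, Bst2 and Oas1a form overlapping runs.

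Before the results, 1 feature of the libraries bears on every comparison with the GSK343 group. Skeletal muscle genes (12 markers) summed to between 546 and 2483 FPKM in GSK343 replicates 3, 4 and 5, against at most 312 FPKM in any other library. The counts of members past the threshold are also given below without these 3 libraries. FPKM summed to between 533606 and 629679 per library, and within groups the libraries correlated at Pearson's r of 0.942 to 0.977 across genes. The tumor label was checked with 13 hepatoma genes, all measured. Alb averaged 3004 ± 256 FPKM (SD, n = 4) and Afp 2282 ± 291 FPKM in the control tumors. The depth behind the values is unknown, since FPKM carries no read totals.

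The members covered a wide range of levels. FPKM, which is scaled to gene length, averaged over all libraries from 2.06 for Mx2 to 1081 for Ifitm3, with a median of 12.8 against 9.36 for all tested genes. Ifitm3 and Bst2 were the members at 100 FPKM or more, and 16 of the 40 were under 10 FPKM.

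Under GSK343 with the control antibody 14 of the 40 antiviral genes rose and none fell. The genes that rose were Irf9, Stat2, Zbp1, Oas1a, Oas3, Ifit1, Ifit2, Ifit3, Isg15, Herc6, Parp9, Parp12, Parp14 and Rtp4. Over all genes tested, 4.36% rose and 1.11% fell in the same comparison (5.47% in either direction), against 14 in 40 of the members. The members were chosen with earlier results of these data known, so setting them against all genes is a description only. The changes, differences of group means on the log2(FPKM + 1) scale, had a median of 0.64 in the members against -0.03 over all genes, and ran from -0.16 to 1.06. They were positive in 38 members and negative in Usp18 and Ifitm3. In 14 members every GSK343 tumor lay above every control tumor, as did 4.05% of all genes, and in none was every GSK343 tumor below, against 3.54%. At an unadjusted p under 0.05, 29 of the 40 would pass, against 18.9% of all genes. Of the 30 members with a promoter window, the 13 with an ISRE core had a median change of 0.76 and the rest 0.55. Of the 13, 6 passed, and 4 of the rest. The 7 with the GAS motif had a median change of 0.43 and the rest 0.61. Of the 7, 2 passed, and 8 of the larger rest. These sets are small and of unequal size, and whether either motif goes with the change was not tested.

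**Figure D2:**
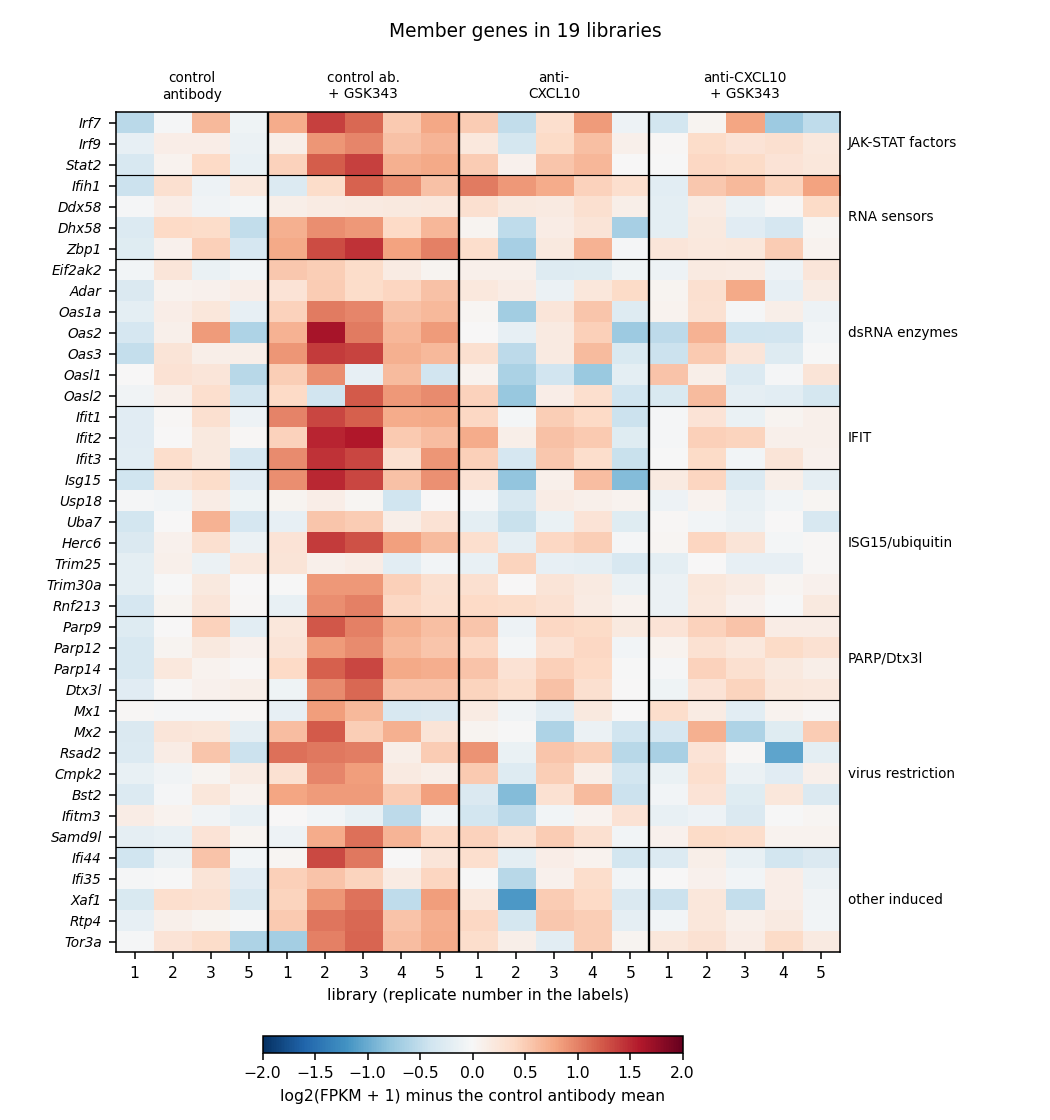
Each of the 40 members (rows, by functional group) in each of the 19 libraries (columns), as log2(FPKM + 1) minus the mean of the control antibody group. The rows are mostly above the control mean in the 5 GSK343 libraries, most of all in replicates 2 and 3, and near it in the anti-CXCL10 and combination libraries.

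The levels of other cell types moved with this result, and their part in it was not tested. In a bulk tumor, fewer cells of a type and less RNA per cell cannot be told apart. Of 10 general leukocyte markers 8 rose under GSK343 with control antibody, and their summed level was 295 to 403 FPKM in the control tumors and 520 to 944 FPKM in the GSK343 tumors. T cell markers rose in 9 of 11 (summed, 43.3 to 72.9 against 86.6 to 243 FPKM), macrophage markers in 7 of 9 (349 to 795 against 948 to 1407 FPKM) and NK cell markers in 3 of 4 measured (10.9 to 18.9 against 20 to 54.4 FPKM). Of 5 neutrophil markers 1 rose (22.8 to 128 against 37.4 to 135 FPKM). Of 13 hepatoma markers 3 fell, and their sum was 7238 to 9153 FPKM in the control and 4664 to 6820 FPKM in the GSK343 tumors. Of 12 skeletal muscle markers 1 rose, with all 12 changes positive and a median of 2.66. Of 8 keratinocyte and 5 endothelial markers none passed. All 8 keratinocyte changes were negative, with a median of -0.63, and 3 endothelial changes were positive and 2 negative. Of 6 plasmacytoid dendritic cell markers, Tcf4 and Cox6a2 were in the table and neither passed. With the summed leukocyte marker level (log2) as a covariate, 0 of the 40 members passed and the median change was -0.0926. With that of skeletal muscle, 0 passed and the median change was 0.497. The leukocyte sums did not overlap between the compared groups, so a fit with that covariate cannot tell their level apart from GSK343. The share of all genes that passed with these covariates is not reported here. Without the 3 libraries high in muscle genes, 0 passed with 2 GSK343 tumors left, and the median change was 0.67. For that fit the share of all genes is not reported either.

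**Figure D3:**
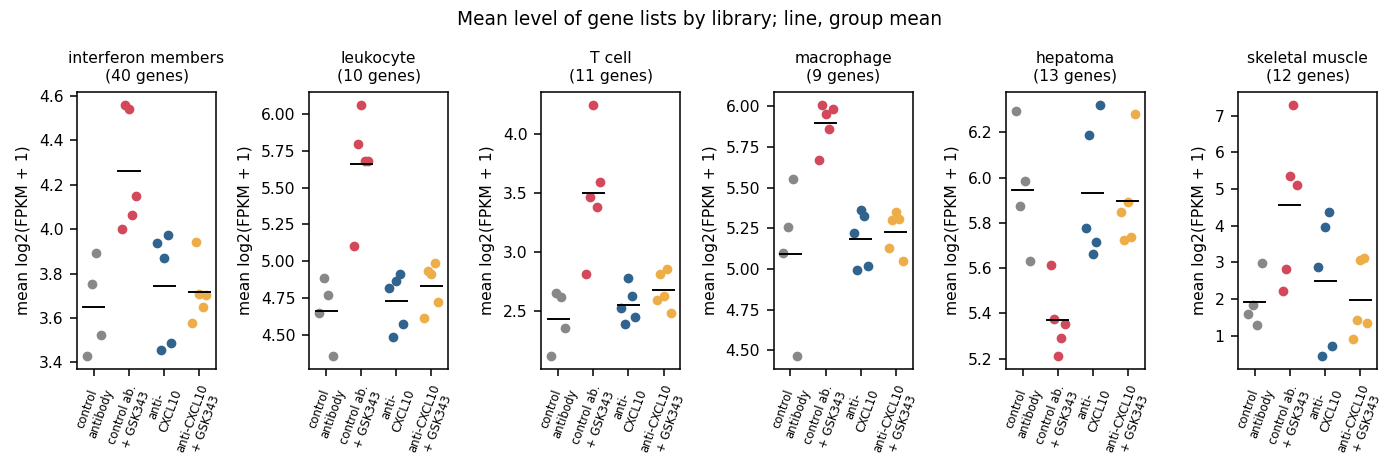
Mean log2(FPKM + 1) of the members and of cell type marker lists in each library (points), by group, with the group mean as a line. The members lie between 4.00 and 4.56 in the GSK343 tumors and between 3.43 and 3.97 in the other 3 groups, and the leukocyte list lies highest in the GSK343 tumors too, between 5.10 and 6.06 against at most 4.99 elsewhere.

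Single libraries weighed on the count. It was 3 without control replicate 1, 6 without control replicate 5, 7 without GSK343 replicate 2 and 6 without GSK343 replicate 3. It lay within 1.5 times the reported count when any other library was left out. How many of all genes passed in each of these fits is not reported here. Zbp1, Ifit1 and Parp14 passed in every fit without 1 library (19 fits). Among the GSK343 tumors, replicate 2 was highest in 19 members and replicate 3 in 15, whereas replicates 1 and 4 were lowest in 19 and 15. Among the control tumors, replicate 3 was highest in 23 members and replicate 1 lowest in 25.

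Of the 3 signal factors, Stat2 and Irf9 rose. Stat2, a transcription factor that interferon receptors activate, measured 8.72, 11.9, 15.1 and 9.96 FPKM in the control tumors and 15.7, 27.3, 30.5, 18.9 and 19.6 FPKM in the GSK343 tumors. The groups did not overlap, although GSK343 replicate 1 lay just above control replicate 3. Means were 11.4 ± 2.8 (SD, n = 4) and 22.4 ± 6.22 FPKM (SD, n = 5), a log2 change of 0.90 ± 0.19 (SE, adjusted p = 0.0105), and without control replicate 1 the adjusted p was 0.052. Stat2 was at 16.3, 11.9, 16.9, 18.4 and 11.3 FPKM in the anti-CXCL10 tumors and at 11.1, 15.3, 14.8, 13.8 and 13.2 FPKM in the combination tumors, ranges that overlap. Irf9, the DNA-binding part of the same factor, rose by 0.65 ± 0.17 (adjusted p = 0.0354), from 9.34 ± 1.12 to 15.4 ± 3.51 FPKM. Without any 1 of 7 libraries (control replicates 1, 2 and 5, GSK343 replicates 2 to 5) Irf9 no longer passed, with an adjusted p of up to 0.127. The third, Irf7, is the factor that amplifies the transcription of interferon-alpha genes. Its level was 10.6, 15.6, 25.4 and 14.9 FPKM in the control, 27.1, 42.6, 36.3, 23.3 and 27.9 in the GSK343, 23, 11, 20.3, 29.4 and 14.7 in the anti-CXCL10 and 12.1, 16.5, 28.2, 9.2 and 10.9 in the combination tumors. Control replicate 3 reached into the GSK343 range, and the change of 0.91 ± 0.31 did not pass (adjusted p = 0.102). Irf7 overlaps Phrf1 and Irf9 overlaps Rnf31 in the table, and whether the counting used strand is not given in the sources used.

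Of the 4 nucleic acid sensors, Zbp1 rose. Zbp1, a sensor of left-handed double-stranded nucleic acid that can trigger necroptosis, was at 46.9, 59.3, 77.7 and 44.1 FPKM in the control tumors and at 94.6, 139, 152, 98.2 and 112 FPKM in the GSK343 tumors. Every GSK343 tumor was above every control tumor, and the mean went from 57 ± 15.3 to 119 ± 25.5 FPKM. Its log2 change of 1.06 ± 0.22 (95% interval 0.60 to 1.53, adjusted p = 0.00975) was the highest among the members. Zbp1 measured 71.6, 34.8, 64, 90.2 and 54.6 FPKM in the anti-CXCL10 and 65.8, 64.5, 64.9, 79.2 and 58.4 FPKM in the combination tumors, so the wide spread of the former held all 5 of the latter. Dhx58, which encodes LGP2, a helicase that tunes the RNA sensors, was at 2.94, 5.23, 5.13 and 2.35 FPKM in control, 6.75, 8.02, 7.63, 5.26 and 6.53 in GSK343, 3.93, 2.35, 4.23, 4.66 and 2.0 in anti-CXCL10 and 3.12, 4.45, 3.05, 2.74 and 3.88 in combination tumors. The GSK343 tumors lay above all others, yet the change of 0.72 ± 0.21 did not pass (adjusted p = 0.0569). It did without control replicate 2 (0.0409), control replicate 3 (0.0382) or anti-CXCL10 replicate 5 (0.0418). The RNA helicases Ifih1 (MDA5), with a change of 0.56 ± 0.26, and Ddx58 (RIG-I), with 0.17 ± 0.09, did not pass either. Ddx58 was the steadier of these, at 23.3 ± 1.62 FPKM in control and 26.3 ± 0.636 FPKM in GSK343 tumors.

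Of the 7 genes in the group of double-stranded RNA enzymes and their relatives, Oas1a and Oas3 rose. The OAS enzymes make short oligoadenylates, the messenger that switches on RNase L. Oas3 was low, at 0.667, 1.78, 1.53 and 1.52 FPKM in the control tumors and 3.31, 5.17, 4.98, 2.83 and 2.66 FPKM in the GSK343 tumors, without overlap. Its change was 1.0 ± 0.25 (adjusted p = 0.0239), which the pseudocount of 1 understates at such levels, and it no longer passed without control replicate 1 (0.106), control replicate 5 (0.0574), GSK343 replicate 2 (0.0641) or GSK343 replicate 3 (0.072). In the anti-CXCL10 tumors Oas3 was at 1.92, 0.623, 1.63, 2.62 and 0.896 FPKM and in the combination tumors at 0.733, 2.34, 1.76, 0.946 and 1.31 FPKM, again low and overlapping. Oas1a went from 11.8, 15, 16.1 and 12.1 FPKM to 19, 29, 27.7, 20.9 and 21.9 FPKM and rose by 0.74 ± 0.19 (adjusted p = 0.031), a call lost without the same 4 libraries. It was at 14, 7.99, 16.2, 20.4 and 11.2 FPKM in anti-CXCL10 and 14.3, 17, 13.4, 14.8 and 12.7 FPKM in combination tumors. Reads of Oas1a may be shared with its near-identical Oas1 paralogs. Oas2 was at 0.891, 1.57, 3.35 and 0.566 FPKM in control, 2.91, 6.56, 3.93, 2.82 and 3.31 FPKM in GSK343, 1.41, 1.15, 1.73, 2.35 and 0.457 FPKM in anti-CXCL10 and 0.671, 2.9, 0.827, 0.845 and 1.3 FPKM in combination tumors. Control replicate 3 lay within the GSK343 range, and Oas2, with 0.98 ± 0.31, did not pass (adjusted p = 0.0756). Without that library it did (0.0203). The kinase Eif2ak2 (PKR), with 0.32 ± 0.12, the editing enzyme Adar, with 0.43 ± 0.15, and the OAS-like Oasl1 and Oasl2, with 0.30 ± 0.26 and 0.61 ± 0.30, did not pass. In Adar all 5 GSK343 tumors (8.62 to 11 FPKM) were nevertheless above the 4 control tumors (5.54 to 7.77 FPKM).

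All 3 IFIT genes rose. IFIT proteins bind foreign RNA and block its translation, and Ifit1 recognizes caps that lack a methyl group. Ifit1 was at 2.78, 3.49, 4.55 and 3.13 FPKM in the control tumors and at 7.86, 10.2, 9.21, 6.44 and 6.49 FPKM in the GSK343 tumors. No GSK343 tumor was within the control range. The mean rose from 3.49 ± 0.768 to 8.04 ± 1.67 FPKM, a log2 change of 1.01 ± 0.18 (95% interval 0.63 to 1.38, adjusted p = 0.00473), the smallest p of any member. In the anti-CXCL10 tumors Ifit1 was at 4.92, 3.34, 5.27, 4.83 and 2.32 FPKM and in the combination tumors at 3.36, 4.36, 3.05, 3.64 and 3.76 FPKM, all below the lowest GSK343 tumor. Ifit3 was at 5.39, 8.37, 7.39 and 4.85 FPKM in control and 13.1, 19.1, 17.5, 8.14 and 12.5 FPKM in GSK343 tumors, where replicate 4 fell within the control range. Its change was 0.98 ± 0.24 (adjusted p = 0.0212), and 9.2, 4.81, 9.73, 8.43 and 4.42 FPKM and 6.33, 8.57, 6.09, 7.85 and 6.81 FPKM were measured in the anti-CXCL10 and combination tumors. Ifit2 rose by 0.94 ± 0.24 (adjusted p = 0.0294), from 5.1 ± 0.723 to 11.4 ± 5.03 FPKM, with GSK343 replicates 2 and 3 at 16.4 and 17.4 FPKM and the other 3 at 7.37 to 8.26 FPKM. Ifit2 lost its call without control replicate 1, 2 or 5 or GSK343 replicate 2 or 3 (adjusted p up to 0.108), and Ifit3 without control replicate 1 or 5 or GSK343 replicate 2 or 3 (up to 0.0829). Ifit3 has a near-identical copy, Ifit3b, that was not analysed here and could share its reads.

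In the group of ISG15 and ubiquitin-type proteins, Isg15 and Herc6 rose among 7. Isg15, a ubiquitin-like protein joined to newly made proteins during infection, was at 13.1, 21, 22.8 and 14.8 FPKM in the control and 34.1, 51.5, 45.8, 26.7 and 33.9 FPKM in the GSK343 tumors. These groups did not overlap, and the change was 1.05 ± 0.28 (adjusted p = 0.0343). It was lost without control replicate 1 (0.136), control replicate 5 (0.107) or GSK343 replicate 2 (0.0891), 3 (0.094) or 5 (0.0512). Levels of Isg15 in the anti-CXCL10 tumors were 21.6, 9.75, 18.7, 27.4 and 9.08 FPKM, and 20, 23.9, 14.2, 19 and 15.2 FPKM in the combination tumors. Herc6, the mouse ligase for ISG15, went from 3.93, 5.36, 6.49 and 4.51 FPKM to 6.29, 14.9, 13.6, 9.61 and 8.33 FPKM, with GSK343 replicate 1 inside the control range. It rose by 0.88 ± 0.20 (adjusted p = 0.0171), with an adjusted p of 0.0763, 0.0603 and 0.0551 without control replicate 1, control replicate 5 and GSK343 replicate 3. Herc6 stood at 6.53, 4.3, 6.95, 7.48 and 4.89 FPKM in the anti-CXCL10 and 5.2, 7.08, 6.18, 4.85 and 5.1 FPKM in the combination tumors.

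Usp18 did not pass. It encodes the protease that removes ISG15 and also dampens the interferon receptor. Its level was 46.7, 45.9, 52.9 and 44.8 FPKM in the control, 49.5, 51.9, 48.9, 35.8 and 47.5 FPKM in the GSK343, 46.9, 37.7, 52.6, 51.1 and 49.9 FPKM in the anti-CXCL10 and 44.1, 49.8, 42.9, 45.6 and 49 FPKM in the combination tumors. Apart from GSK343 replicate 4 and anti-CXCL10 replicate 2, all libraries lay between 42.9 and 52.9 FPKM. The change under GSK343 with control antibody was -0.03 ± 0.11 (95% interval -0.26 to 0.19), an interval that leaves out a rise as large as the median of the members. None of the other 4 passed: the change was 0.26 ± 0.20 for Uba7, the E1 enzyme of ISG15, 0.05 ± 0.14 for Trim25, a ligase that acts on RIG-I, 0.50 ± 0.15 for the ligase Trim30a and 0.51 ± 0.18 for the large ligase Rnf213. Trim30a and Rnf213 passed without GSK343 replicate 1, at 0.00506 and 0.00836.

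Among the PARP group, Parp9, Parp12 and Parp14 rose and Dtx3l did not pass. PARP enzymes attach ADP-ribose to proteins, and PARP9 works in a complex with the ligase DTX3L. Parp14 was at 6.88, 10.4, 9.38 and 9.0 FPKM in the control tumors and 12, 21.4, 23.7, 15.6 and 15.2 FPKM in the GSK343 tumors, which did not overlap. Its change was 0.88 ± 0.17 (adjusted p = 0.00642). In the anti-CXCL10 tumors Parp14 stood at 13.6, 11.1, 12.7, 12 and 8.76 FPKM and in the combination tumors at 8.69, 12.5, 11.3, 10.3 and 9.64 FPKM. Parp12 rose by 0.65 ± 0.14 (adjusted p = 0.0133) and was above the control range in all 5 GSK343 tumors, with an adjusted p of 0.0635 without control replicate 1. Parp9 rose by 0.76 ± 0.19 (adjusted p = 0.0239), and its call was lost without control replicate 1 or 5 or GSK343 replicate 2 or 3 (adjusted p up to 0.1). Dtx3l, whose gene overlaps Parp9 in the table, had a change of 0.63 ± 0.19 (adjusted p = 0.0563), and passed without GSK343 replicate 1 (0.00204).

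None of the 7 virus restriction factors passed under GSK343 with control antibody, although the changes of 6 were positive. Bst2 (tetherin), which holds budding virus at the cell surface, came closest. It was at 171, 202, 242 and 216 FPKM in the control tumors and 356, 375, 372, 294 and 364 FPKM in the GSK343 tumors, a clear separation of the groups. The change was 0.76 ± 0.22 with an adjusted p of 0.053, and it passed without anti-CXCL10 replicate 2 (0.023), 3 (0.0488) or 4 (0.0213). The spread shared by the 4 groups includes the anti-CXCL10 tumors, in which Bst2 ranged widely, at 169, 113, 254, 319 and 153 FPKM. The combination tumors were at 199, 249, 175, 242 and 169 FPKM. In a fit of the control and GSK343 groups alone its adjusted p was 0.0275. That fit passed fewer members, 6 that rose against 14 in the fit of all groups. How many of all genes it passed is not reported here. Rsad2 (viperin), which makes a chain-terminating nucleotide, was at 2.6, 3.81, 5.42 and 2.24 FPKM in control, 8.33, 8.03, 7.83, 3.71 and 5.2 FPKM in GSK343, 7.09, 2.98, 5.41, 5.13 and 1.96 FPKM in anti-CXCL10 and 1.79, 4.29, 3.44, 1.09 and 2.79 FPKM in combination tumors. The GSK343 range reached into the control range, and the change of 0.76 ± 0.32 did not pass (adjusted p = 0.195). The change was 0.49 ± 0.21 for its neighbour Cmpk2, a mitochondrial nucleotide kinase, 0.14 ± 0.20 and 0.66 ± 0.25 for the antiviral GTPases Mx1 and Mx2, and 0.57 ± 0.18 for Samd9l, and none of these passed. C57/BL6 mice are known to carry a defective Mx1 allele.

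Ifitm3, which keeps viruses from fusing with endosomes, was the most abundant member and did not follow the others. It measured 1268, 1206, 1095 and 1031 FPKM in the control, 1153, 1109, 1032, 797 and 1094 FPKM in the GSK343, 893, 799.9, 1107, 1202 and 1400 FPKM in the anti-CXCL10 and 1030, 1063, 938, 1138 and 1175 FPKM in the combination tumors. All 4 groups overlapped, and the lowest library was GSK343 replicate 4. The change under GSK343 with control antibody was -0.16 ± 0.14 (95% interval -0.46 to 0.15, adjusted p = 0.629), so its upper bound lies under the median change of the members.

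Of the 5 other induced genes, Rtp4 rose. Rtp4, a chaperone of receptors that is strongly induced by interferon, was at 10.4, 12.7, 12.3 and 11.7 FPKM in the control tumors and at 17.4, 25.6, 27.2, 17.9 and 20 FPKM in the GSK343 tumors. The change was 0.81 ± 0.17 (adjusted p = 0.0124), with an adjusted p of 0.052 without control replicate 1. Rtp4 was at 16, 9.04, 17.5, 17 and 10.3 FPKM in the anti-CXCL10 and 11.3, 13.9, 12.7, 13.4 and 11.3 FPKM in the combination tumors. The other 4 did not pass, with changes of 0.53 ± 0.25 for Ifi44, 0.42 ± 0.14 for Ifi35, 0.55 ± 0.33 for the XIAP-binding Xaf1 and 0.57 ± 0.28 for the ATPase Tor3a.

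**Figure D4:**
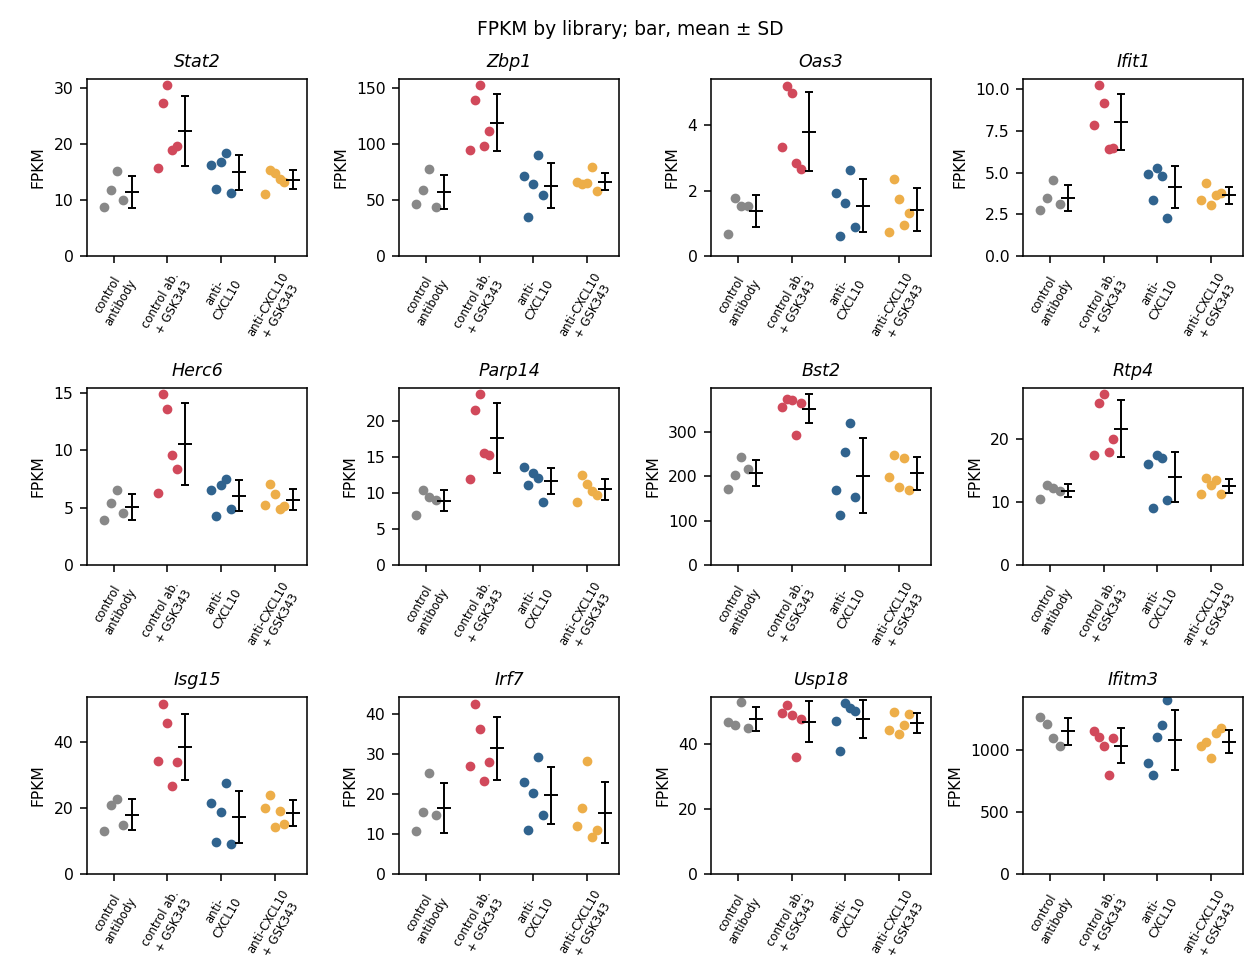
FPKM in every library (points) of 12 members by group, with the mean and SD as bars. In the 8 members that lead their groups the mean of the GSK343 tumors is the highest, while the points of Usp18 and Ifitm3 overlap in all 4 groups.

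Among tumors treated with GSK343, the antibody against CXCL10 went with lower levels of the same family. In the combination tumors 15 of the 40 members were lower than in the GSK343 tumors and none was higher, where 6.64% of all genes fell and 3.48% rose (10.1% in either direction). The median change was -0.57 against 0.03 over all genes, and the change was negative in 39 members. In 10 members every combination tumor lay below every GSK343 tumor, as did 4.65% of all genes, and in none every one above, against 4.12%. At an unadjusted p under 0.05, 30 of 40 would pass, against 25.7% of all genes. The 15 included 2 of 3 signal factors, 2 of 4 sensors, 3 of 7 genes of the double-stranded RNA group and 2 of 3 IFIT genes. They also held 2 of 7 ISG15 and ubiquitin genes, 1 of 4 PARP genes, 2 of 7 restriction factors and 1 of 5 others.

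Ifit1 fell by 0.95 ± 0.17 (adjusted p = 0.00303), the smallest p, from 8.04 ± 1.67 to 3.63 ± 0.489 FPKM. Rtp4 fell by 0.72 ± 0.16 (adjusted p = 0.0107), Oas3 by 0.99 ± 0.23 (0.0136), Parp14 by 0.66 ± 0.16 (0.015) and Dhx58 by 0.82 ± 0.20 (0.0156). These 5 passed in every fit without 1 library. The largest decreases were those of Oas2, which fell by 1.11 ± 0.29 (0.023), Rsad2, by 1.08 ± 0.30 (0.0297), and Irf7, by 1.06 ± 0.29 (0.0289), and in all 3 a combination tumor reached into the GSK343 range. Isg15 fell by 1.0 ± 0.26 (0.0238), Ifit3 by 0.85 ± 0.22 (0.0231), Zbp1 by 0.81 ± 0.21 (0.0205) and Bst2 by 0.78 ± 0.21 (0.0261). Herc6 fell by 0.74 ± 0.19 (0.0223), Oas1a by 0.67 ± 0.18 (0.027) and Stat2 by 0.64 ± 0.18 (0.0299). The other 10 lost the call in 3 to 6 of the 19 such fits, all of them without GSK343 replicate 2 or 3 and some without GSK343 replicate 1 or combination replicate 1, 3, 4 or 5, with adjusted p of at most 0.0812. Ifi35, which did not overlap between the groups, did not pass at -0.41 ± 0.13 (0.0526). Usp18, Ifitm3 and Trim25, with changes of 0.00 ± 0.10, 0.05 ± 0.14 and -0.15 ± 0.13, did not pass either.

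This comparison uses the same GSK343 tumors as the one above, so the counts are not independent of each other. The count of 15 was 24 without GSK343 replicate 1, 6 without GSK343 replicate 2, 5 without GSK343 replicate 3, 8 without combination replicate 1 and 6 without combination replicate 5. It stayed within 1.5 times the reported count without any other library. Without the 3 libraries high in muscle genes, 2 members passed (Ifit1, adjusted p = 0.0199, and Ifit3, 0.0442), and the median change was -0.58. Shares of all genes called in these fits, and with the covariates below, are not reported here. Leukocyte markers fell in 6 of 10, T cell markers in 8 of 11, macrophage markers in 6 of 9, NK cell markers in 3 of 4 and neutrophil markers in 2 of 5 in this comparison, and 6 of 13 hepatoma markers rose. Of 12 skeletal muscle markers 1 fell, with all 12 changes negative and a median of -2.6. In the combination tumors the leukocyte markers summed to 362 to 460 FPKM, the T cell markers to 63.5 to 91.7 FPKM, the macrophage markers to 545 to 742 FPKM, the NK cell markers to 12.9 to 20.5 FPKM, the neutrophil markers to 41.3 to 71.8 FPKM (37.4 to 135 FPKM in the GSK343 tumors), the skeletal muscle markers to 14.1 to 123 FPKM and the hepatoma markers to 6960 to 11411 FPKM. The part of these cells in the result was not tested. With the summed leukocyte marker level as a covariate, 0 members passed and the median was 0.0391. With that of skeletal muscle 1 passed (Ifit1), and the median was -0.402. Here too the leukocyte sums did not overlap between the compared groups, so their level cannot be told apart from the antibody in that fit.

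**Figure D5:**
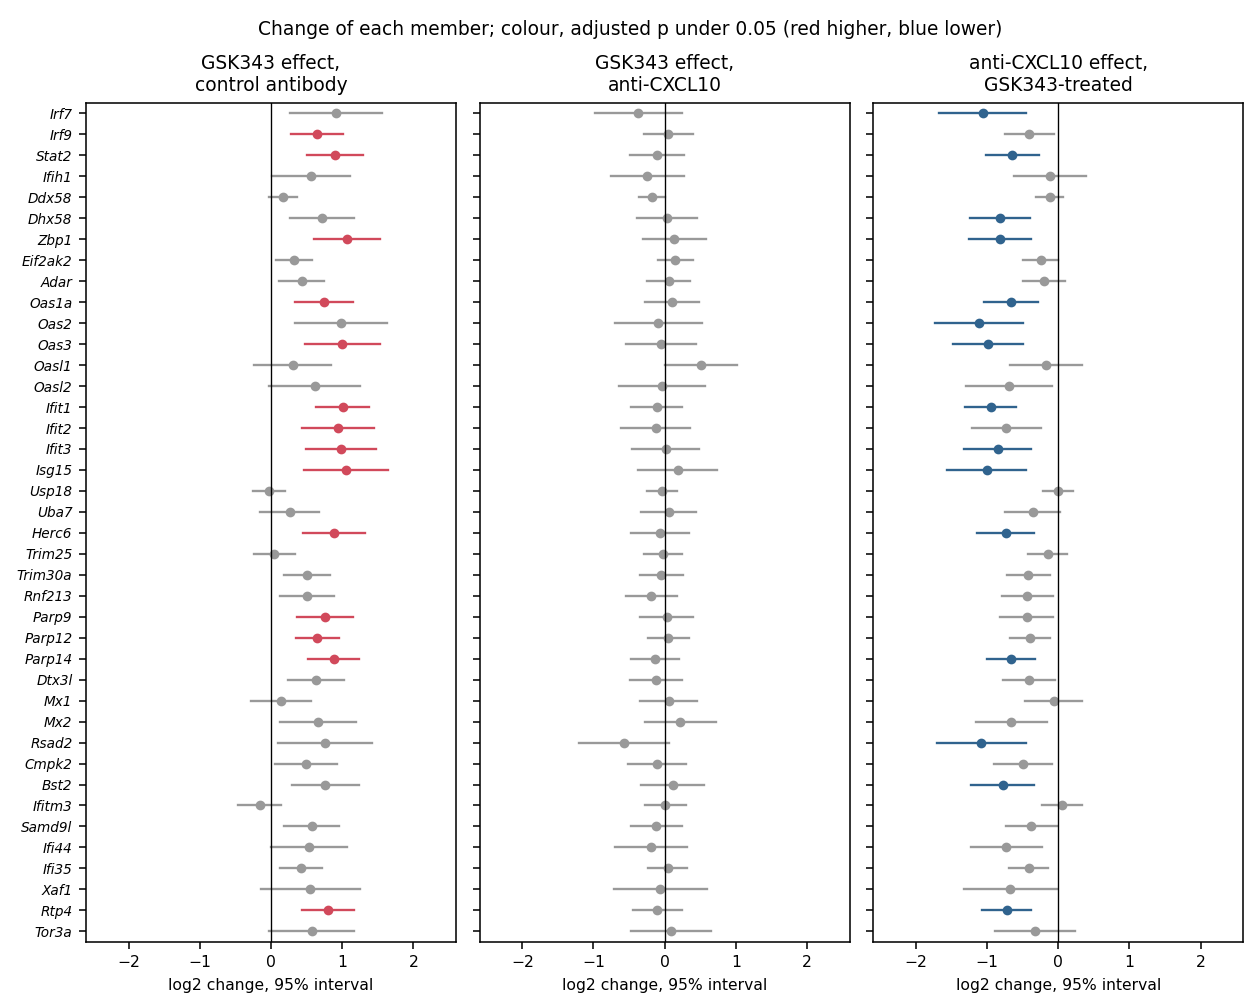
Log2 change of each member with its 95% interval, by comparison, with red for members that rose and blue for those that fell at an adjusted p under 0.05. Under GSK343 with control antibody 14 members are in red, and under GSK343 with anti-CXCL10 none is coloured.

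With the antibody against CXCL10 in both groups, no member passed when combination tumors were compared with anti-CXCL10 tumors by limma, and none of all 14385 genes did (0% called). At an unadjusted p under 0.05, 1 of 40 members would pass, against 2.91% of all genes. The median change was -0.03, with 18 changes positive and 22 negative, from -0.57 (Rsad2) to 0.51 (Oasl1). In the 8 members that lead their functional groups the 95% intervals lay between -0.54 and 0.57. Intervals of the other members are not given here. For Ifit1 the change was -0.11 ± 0.17 (95% interval -0.47 to 0.24), for Zbp1 0.14 ± 0.21 (-0.30 to 0.57), for Parp14 -0.13 ± 0.16 (-0.47 to 0.20) and for Rtp4 -0.10 ± 0.16 (-0.45 to 0.24). The change was -0.11 ± 0.18 (-0.48 to 0.27) for Stat2, -0.05 ± 0.23 (-0.54 to 0.44) for Oas3, -0.06 ± 0.19 (-0.47 to 0.34) for Herc6 and 0.11 ± 0.21 (-0.33 to 0.56) for Bst2. These 8 genes were chosen for their small p under GSK343 with control antibody. None of the cell type marker lists had a gene that passed here.

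The difference between the 2 effects of GSK343 was tested as an interaction. No member passed, with 0.0626% of all genes called, all of them lower, and 25 of 40 members had an unadjusted p under 0.05, against 12.9% of all genes. The median of the members was -0.66 against 0.04 over all genes, and 37 of 40 were negative. Ifit1 had the smallest adjusted p, 0.0848 with a difference of -1.12 ± 0.25 (-1.64 to -0.60), followed by Parp14, 0.0885 with -1.01 ± 0.23 (-1.5 to -0.52). Stat2 gave -1.01 ± 0.26 (adjusted p = 0.115) and Rtp4 -0.91 ± 0.24 (0.117). The count rose to 10 without GSK343 replicate 1, 2 without anti-CXCL10 replicate 5 and 1 without control replicate 3. It stayed at 0 without the 3 libraries high in muscle genes. Shares of all genes called in these fits are not reported here. In the fit of all libraries, the effect of GSK343 is therefore not shown to differ between the antibodies for any single member.

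Without GSK343, the antibody against CXCL10 left no member past the threshold by limma, with 0.0139% of all genes called, and 2 of 40 members had an unadjusted p under 0.05, against 6.81% of all genes. The median change was 0.12. Ifih1 (MDA5) was the only member wholly higher in 1 group, at 2.91, 5.54, 3.87 and 5.09 FPKM in the control and 9.8, 8.57, 7.79, 6.21 and 5.64 FPKM in the anti-CXCL10 tumors, as was 0.925% of all genes, and no member lay wholly lower, against 1.61%. Its change of 0.69 ± 0.26 did not pass (adjusted p = 0.684).

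The genes around the members were taken from a list of 52 genes of the interferon chain that are not members, of which 45 were tested. Under GSK343 with control antibody 19 rose and none fell, with a median change of 0.41, while 15 of 45 fell in the combination against the GSK343 tumors and none passed under GSK343 with anti-CXCL10. Over all genes tested, 4.36% rose and 6.64% fell in these comparisons. With the summed leukocyte marker level as a covariate none of the 45 passed in either comparison, and with that of skeletal muscle 0 rose and 1 fell. The leukocyte sums did not overlap between the groups of either comparison. Without the 3 libraries high in muscle genes, 0 rose and 3 fell. The 19 became 8 to 10 without control replicate 1 or 5 or GSK343 replicate 2 or 3. The 15 became 24 without GSK343 replicate 1, and 8 or 9 without GSK343 replicate 2 or 3 or combination replicate 1, 3 or 5. Shares of all genes called with the covariates or without these libraries are not reported here. The leukocyte, T cell, macrophage and NK cell markers moved in the same directions as these genes, as given above, and their part in these counts was not tested. The type I interferon genes of the list, Ifnb1, Ifna1, Ifna2 and Ifna4, were not analysed here. The receptor chains did not pass: Ifnar1 was at 18.1 ± 1.98 FPKM in control and 16.3 ± 2.53 FPKM in GSK343 tumors (-0.16 ± 0.11), and Ifnar2 at 47.7 ± 1.43 and 51.5 ± 6.04 FPKM (0.10 ± 0.14). Irf3, the factor that starts interferon transcription, did not pass with a change of 0.00 ± 0.12 (95% interval -0.25 to 0.26).

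The 8 genes of that list with the smallest p all rose. Ifng, interferon-gamma itself, rose by 1.52 ± 0.30 (adjusted p = 0.00756), from 2.61 ± 0.673 to 10.6 ± 7.16 FPKM, and was at 3.63 ± 1.04 and 3.6 ± 1.12 FPKM in the anti-CXCL10 and combination tumors. Socs1, the feedback inhibitor of JAK kinases, rose by 1.3 ± 0.26 (0.00756). The nucleotide hydrolase Samhd1 rose by 0.96 ± 0.18 (0.0052). The GTPases Ifi47 and Igtp rose by 0.88 ± 0.17 (0.00653) and 1.11 ± 0.24 (0.012). The nucleic acid binding PYHIN genes Ifi204, Ifi205 and Mnda rose by 0.88 ± 0.18 (0.00739), 1.07 ± 0.21 (0.00747) and 0.99 ± 0.20 (0.00749). The PYHIN and GTPase families hold near-identical genes whose reads may be shared.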

How the data were processed

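The authors deposited 1 expression table of 14646 rows with a column for each of 19 libraries. Its values are FPKM as deposited by the authors, a unit inferred from the values: sums weighted by gene length varied by 0.79% (coefficient of variation) between libraries, against 4.06% for plain sums. Per the submitters' processing notes, the tools were StringTie 1.3.3b, HTSeq 0.6.0, HISAT2 2.1.0, TopHat2 2.1.0 and Trimmomatic 0.33, with builds GRCm38 and mm10; which step each served, and the strand setting, are not given in the sources used here. Every deposited row reached 1 FPKM in at least 4 libraries. Control antibody replicate 4 was not analysed here. Sample labels number 5 replicates a group, whereas the design text names 3.

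Rows of 1 gene ID were added (14633 genes), and genes with at least 1 FPKM in at least 5 libraries were tested (14385, with 248 removed). Of the gene IDs, 99.3% were in GENCODE M21. limma 3.58.1 (R 4.3.3, statmod 1.5.0) was fitted to log2(FPKM + 1) with an intensity trend and robust moderation, as 4 group means over all 19 libraries, with 5 comparisons. The threshold was an adjusted p (Benjamini-Hochberg, over all genes tested) under 0.05, and an adjusted p in the text is limma's. The pseudocount of 1 understates the change of low genes. The fit was tested on simulated data.

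The members, the 8 functional groups and the marker lists were chosen with earlier results of these data known. Every member is named. Values in every library are given for the member of smallest p in each functional group under GSK343 with control antibody, the 4 members of highest mean level, and members that passed in another comparison. From the list of the interferon chain, the 8 genes of smallest p and Ifnar1, Ifnar2 and Irf3 are named, and 1 further gene chosen for naming is not reported here. Alternatives were another pseudocount, other filters on low values, the compared groups alone, median-ratio scaling, quantile normalization, a replicate block, plain moderation, marker levels as covariates, and leaving out libraries. The mean log2 marker levels as covariates, and all alternatives for the interferon chain list, were added after seeing the data.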

Additional observations from a re-analysis of the deposited data

Results flagged for a closer look

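In 160 sets of values (40 members in 4 groups), 5 values, in 4 libraries, stood far from the rest of their group. Chance marks about 1 set in 20, so these are no more than that rate would give. In Adar, the RNA editing enzyme, control replicate 1 was low at 5.54 FPKM. In Oasl2 combination replicate 2 was high at 37.3 FPKM, and in Trim25 anti-CXCL10 replicate 2 was high at 18.7 FPKM. GSK343 replicate 4, the library with the most skeletal muscle RNA, was low in Usp18 at 35.8 FPKM and in Bst2 at 294 FPKM.

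In Rsad2 and Rtp4 every GSK343 tumor was above the control mean, and every combination tumor was below the anti-CXCL10 mean. The difference between the effects of GSK343 was -1.33 for Rsad2 (interaction, adjusted p = 0.198) and -0.91 for Rtp4 (adjusted p = 0.117) on the log2 scale, and neither passed.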

How the results depend on the processing

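Under GSK343 with control antibody the count of 14 members that rose became 6 in a fit of the compared groups alone, and 0 with the summed or mean log2 level of leukocyte or skeletal muscle markers as a covariate or without the 3 libraries highest in muscle genes. For the combination against GSK343 tumors, the 15 that fell became 0 with either leukocyte covariate, 1 with the summed and 0 with the mean log2 muscle level, and 2 without those libraries. With the summed leukocyte level the median changes were -0.0926, 0.0391 and, for the interaction, -0.0423, and with the mean log2 level -0.0648, 0.0451 and -0.0157. Of the interferon chain list, the 19 genes that rose and the 15 that fell became 6 and 8 in a fit of the compared groups alone, 0 and 0 with either leukocyte covariate, 0 and 1 with the summed and 0 and 0 with the mean log2 muscle level, and 0 and 3 without those 3 libraries. Leaving out each library gave 8 to 24 that rose and 8 to 24 that fell. Leaving out each library in turn gave 3 to 20 members that rose (median change 0.53 to 0.74), 5 to 24 that fell (-0.65 to -0.44) and 0 to 10 for the interaction (-0.77 to -0.58). The other pseudocount, filters, scalings and plain moderation kept each of these counts within 1.5 times its reported value. Shares of all genes called under any of the alternatives are not reported here. A pairing of the libraries by the replicate number of the sample labels is neither shown nor excluded. In the GSK343 tumors the library names carry other numbers, and a pairing by those was not examined. Of 18 pairs with 1 replicate number, r ran from -0.18 to 0.32 and 8 were over 0.1. In 7 of the 18 pairs the library with the same number was the best match. With the number as a replicate block 14 members rose and 17 fell, and the interaction had 1 (Parp14, adjusted p = 0.0477). Changes of sign came mainly with the leukocyte covariates. Under GSK343 with control antibody the summed level gave Irf7 -0.181, Irf9 -0.392, Stat2 -0.0774, Ifih1 -0.105, Dhx58 -0.0347, Zbp1 -0.155, Oas1a -0.285, Oas2 -0.00211, Oasl2 -0.529, Ifit2 -0.0128, Isg15 -0.116, Uba7 -0.691, Herc6 -0.144, Trim30a -0.162, Rnf213 -0.0802, Parp9 -0.13, Parp12 -0.023, Dtx3l -0.157, Mx1 -0.231, Bst2 -0.0734, Samd9l -0.189, Ifi44 -0.293, Ifi35 -0.108, Xaf1 -0.74, Rtp4 -0.0773 and Tor3a -0.933, and the mean log2 level Irf9 -0.32, Stat2 -0.102, Ifih1 -0.368, Dhx58 -0.0175, Oas1a -0.131, Oas2 -0.0646, Oasl2 -0.401, Ifit2 -0.119, Uba7 -0.568, Herc6 -0.143, Trim30a -0.239, Rnf213 -0.259, Parp9 -0.11, Parp12 -0.0202, Dtx3l -0.277, Mx1 -0.304, Cmpk2 -0.0649, Samd9l -0.257, Ifi44 -0.398, Xaf1 -0.688, Rtp4 -0.017 and Tor3a -0.968. For the combination against GSK343 tumors the summed level gave Stat2 0.165, Zbp1 0.195, Oas1a 0.183, Herc6 0.112 and Rtp4 0.00713, and the mean log2 level Stat2 0.187, Zbp1 0.0462, Oas1a 0.0559, Herc6 0.113 and Parp14 0.0278. The summed level gave Zbp1 -0.027 under GSK343 with anti-CXCL10 and, for the interaction, Zbp1 0.128 and Bst2 0.0764, and the mean log2 level Zbp1 0.00145 for the interaction. Usp18 became 0.0251 with the mean log2 muscle level, 0.0918 without the muscle-rich libraries, 0.0177 without control replicate 3 and 0.0569 without GSK343 replicate 4, the highest value without 1 library (lowest, -0.0736). Trim25 became -0.018 without control replicate 1 and -0.00412 without GSK343 replicate 1, and Mx1 -0.0319 without GSK343 replicate 2, with highest values of 0.118 and 0.256 without 1 library. Under GSK343 with anti-CXCL10, Oas3 became 0.0147 and 0.0922 without anti-CXCL10 replicates 1 and 4, and 0.0592 and 0.0173 without combination replicates 1 and 4. Zbp1 became -0.0572 and Bst2 -0.0686 without anti-CXCL10 replicate 2, and Herc6 0.0119 without replicate 4. Without 1 library these 4 genes otherwise reached -0.198 (Oas3), 0.28 (Zbp1), 0.304 (Bst2) and -0.157 (Herc6). The cause of these changes was not tested, and the leukocyte levels of the GSK343 tumors did not overlap those of the other groups. Depth is unknown, and members under 10 FPKM are the least certain.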

Other observations

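GSK343 replicate 1 divided the members in a way the group means do not show. In Ifit1, Isg15, Bst2, Rsad2 and Oas3 this tumor stood with the other GSK343 tumors or above some of them, at 7.86, 34.1, 356, 8.33 and 3.31 FPKM. In Trim30a, Rnf213, Dtx3l, Samd9l and Tor3a it was within the range of the control tumors, or below it in Tor3a, at 13.5, 6.04, 7.75, 9.83 and 5.46 FPKM, while the other 4 GSK343 tumors were at 17.2 or more, 8.81 or more, 12.8 or more, 14.5 or more and 14.8 or more. Without it these 5 genes passed by limma, with adjusted p of 0.00506, 0.00836, 0.00204, 0.00408 and 0.00549, as did Ifih1 at 0.0427. In that fit 20 of the 40 members rose, and the share of all genes that rose in it is not reported here. The genes in this paragraph were chosen after their values were seen.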
